A study of Mus musculus with 4 samples.

Results

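Keratinocytes of the skin surface build a water barrier from cholesterol, long fatty acids and ceramides, and the genes that make these lipids were followed here in basal epidermal cells of the mouse. Cholesterol synthesis runs from acetyl-CoA through mevalonate and squalene to sterols. Its genes answer to the transcription factors SREBP-1 and SREBP-2, which Insig proteins hold back in the endoplasmic reticulum when sterols are plentiful. Fatty acids are made by Fasn and lengthened by the Elovl elongases, and serine palmitoyltransferase, ceramide synthases and the desaturase Degs1 then join them to a sphingoid base to give ceramides, which in the upper epidermis carry unusually long acyl chains.

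The 39 genes were taken by name from the 24378 gene rows of the count tables. They comprise 16 enzymes of sterol synthesis, 3 regulators (Srebf1, Srebf2 and Insig1), 13 genes of fatty acid synthesis, elongation, desaturation and activation, 6 genes of sphingolipid synthesis, and the epidermal fatty acid-binding protein Fabp5. Msmo1 is listed in the tables under its older symbol Sc4mol.

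The study sorted live basal cells of the dorsal interfollicular epidermis (CD49f+, LY6A+, CD34-negative) from female Ivl-CreERT2/R26-tdTomato mice at postnatal day 57, 2 days after an intraperitoneal dose of tamoxifen, given in the labels as 10 µg per g and differently in the study's methods. All groups share this genotype and treatment. In these mice the Involucrin (Ivl) promoter drives the inducible Cre, so cells that expressed it when tamoxifen was given, and their progeny, carry tdTomato (Tom+), while the others do not (Tom-). Tom- cells can therefore include cells that escaped recombination. Single cells were captured on Fluidigm C1 chips, and each messenger RNA was counted once at its 5′ end by a unique molecular identifier (UMI), so that levels are given here as UMIs per 10,000 gene UMIs and do not scale with transcript length. There were 2 libraries of each sort, named by the run tag in their titles (run 1 and run 2). The cells came from 2 mice, so libraries must share mice. The labels do not say whether a tag stands for a mouse, so p-values measure only the spread between these libraries, which may be technical. Each sort was captured on chips of its own, and chip and sort cannot be told apart.

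Wells with at least 2000 gene UMIs were kept as cells, 161 of 384 in all. Tom+ run 1 held 35 cells, Tom+ run 2 held 58, Tom- run 1 held 20 and Tom- run 2 held 48. The libraries summed to between 81630 and 305407 UMIs, with a median of 3225 to 4524.5 UMIs per cell, and no well name was shared between libraries. Defining genes of basal keratinocytes (Krt5, Krt14, Itga6, Itgb4, Col17a1 and Ly6a) were present at 203 to 314 UMIs per 10,000, and at least 3 of the 6 were seen in 152 of the 161 cells. Markers of melanocytes, fibroblasts and endothelial cells stayed at or below 0.131 UMIs per 10,000 in every library. T cell markers stood at 0 to 2.06, Langerhans cell markers at 0.704 to 1.97, hair follicle bulge markers at 2.42 to 8.82 and follicle infundibulum markers at 4.77 to 19.9, and at least 3 markers of these lists were held by 3, 2, 3 and 27 cells. These cells were kept. Of the 10 sebaceous gland markers listed, a cell type rich in lipid synthesis, 6 were at 0 in all kept cells (Cidea, Pparg, Awat2, Fabp4, Elovl3 and Mc5r), and no cell held 3 of them. Krt10, a keratin of differentiating cells, was used to split the cells after each had been thinned to 2000 UMIs. Cells with at least 6 Krt10 UMIs are called Krt10 high, a count converted here on ln(UMI + 1) from a cut-off that the study set on log-normalized values. Tom+ run 1 had 25 such cells, Tom+ run 2 had 37 and each Tom- library had 3.

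The upstream sequences of Hmgcs1, Idi1 and Elovl4 are shown as examples. A sterol response element or a CCAAT box, where the SREBPs and the partner factor NF-Y are known to bind, is a common feature of sterol genes. Each run gives the 250 bases before the RefSeq gene start (build GRCm38.p6), 5′ to 3′ on the strand of the gene. Capitals mark matches to CCAAT on either strand (ATTGG on the other) and to the sterol response element letters TCACNCCAC. Hmgcs1 (chr13:119690101-119690350, plus strand) makes the substrate of the mevalonate pathway, Idi1 (chr13:8885356-8885605, plus strand) forms its activated isoprene unit, and Elovl4 (chr9:83806306-83806555, minus strand) builds the very long acyl chains of barrier ceramides.
Hmgcs1: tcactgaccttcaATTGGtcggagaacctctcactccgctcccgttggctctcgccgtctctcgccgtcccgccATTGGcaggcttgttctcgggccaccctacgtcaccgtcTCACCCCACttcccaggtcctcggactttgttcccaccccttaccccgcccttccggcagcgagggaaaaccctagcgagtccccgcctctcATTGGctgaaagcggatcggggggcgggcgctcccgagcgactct
Idi1: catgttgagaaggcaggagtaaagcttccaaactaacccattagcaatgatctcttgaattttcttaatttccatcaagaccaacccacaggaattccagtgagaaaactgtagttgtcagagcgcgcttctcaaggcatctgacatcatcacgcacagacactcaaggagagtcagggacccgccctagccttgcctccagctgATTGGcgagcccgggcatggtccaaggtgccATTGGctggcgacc
Elovl4: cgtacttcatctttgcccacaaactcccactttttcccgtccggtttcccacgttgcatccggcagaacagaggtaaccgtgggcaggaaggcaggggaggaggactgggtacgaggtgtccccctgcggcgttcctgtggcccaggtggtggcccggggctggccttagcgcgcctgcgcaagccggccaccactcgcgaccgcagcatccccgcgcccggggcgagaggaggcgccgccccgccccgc

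The Hmgcs1 run held 3 CCAAT boxes and 1 sterol response element, the Idi1 run held 2 CCAAT boxes, and the Elovl4 run held neither. RefSeq promoters were at hand for 33 of the 39 genes, with none for Scd2, Fdps, Fdft1, Sqle, Fabp5 and Fads1. A CCAAT box stood in the upstream 250 bases of 13 of 13 sterol genes and 3 of 3 regulators, against 4 of 11 fatty acid genes and 2 of 6 sphingolipid genes. Of 27025 genes with a promoter entry, 37.5% had a CCAAT box in the same window. The sterol response element letters were found in Hmgcs1 alone among the 33, and in 1.22% of all genes. These are counts of letters in 1 window and say nothing of binding.

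In all kept cells together, the 39 genes gave 1636 UMIs. They were sparse: the median gene had 29 UMIs, 9 genes had fewer than 10, and the desaturases Fads1 and Fads2 had none. A count of 0 allows up to 0.0982 to 0.368 UMIs per 10,000, depending on the library (3 counts, counting error only). The sterol genes held 690 UMIs, the fatty acid genes 516, the sphingolipid genes 163, Fabp5 153 and the regulators 114. Within each route the UMIs were uneven. Hmgcs1 alone had 269 of the 690 sterol UMIs, and Elovl4 had 189 of the 516 fatty acid UMIs.

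**Figure D1:**
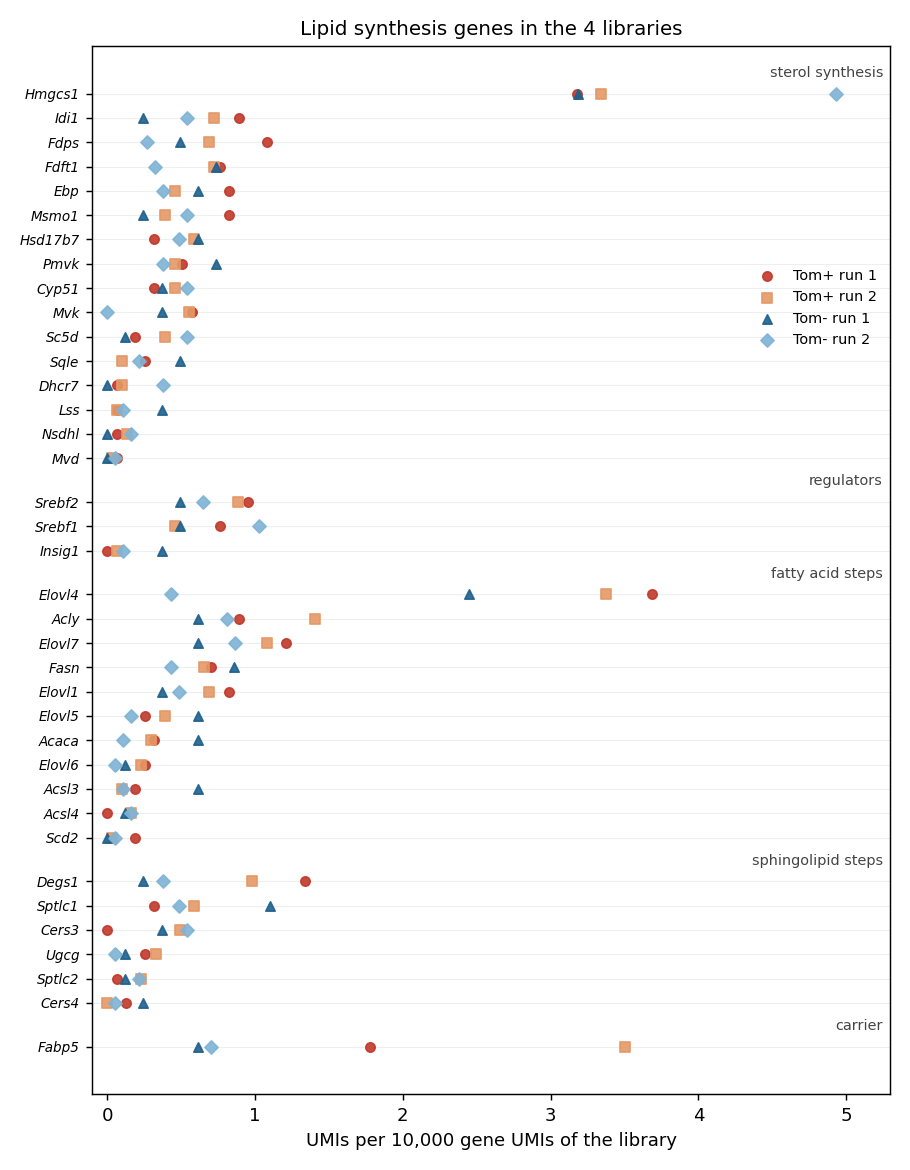
Level of the 37 members with at least 1 UMI (rows, grouped by route) in each of the 4 libraries, in UMIs per 10,000 gene UMIs of the library (horizontal axis, linear); each symbol is 1 library. Hmgcs1, Elovl4 and Fabp5 reach 3 or more, while the other members stay below 1.5.

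The first comparison asked whether cells traced from an Involucrin-expressing basal cell held more or less lipid synthesis RNA than non-traced cells. Fabp5 was higher in Tom+ libraries. Among the other members no difference passed the threshold, with the largest fold changes in Elovl4, Degs1 and Fdps, whose Tom+ libraries both lay above both Tom- libraries. Sterol genes as a group differed between the sorts by less than the spread between libraries. The kept cells of a library were added up, and the 4 sums were tested with edgeR over all genes that passed its filter on low counts, with Benjamini-Hochberg (BH) adjustment and a threshold of 0.05. Of 3070 genes tested, 1.24% passed, 0.847% higher in Tom+ and 0.391% lower. Only 16 of the 39 members passed the filter on low counts, and 1 of these was called.

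Fabp5, which carries fatty acids within keratinocytes, gave 1.78 and 3.50 UMIs per 10,000 in the Tom+ libraries and 0.613 and 0.704 in the Tom- libraries. The sorts did not overlap, and the Tom+ libraries differed more from each other than the Tom- libraries did. The log2 fold change was 1.96 ± 0.46 (SE; edgeR, BH-adjusted p = 0.0363, 2 libraries a sort). Leaving out Tom+ run 2 gave 1.34 (edgeR, BH-adjusted p = 0.648) and leaving out Tom- run 2 gave 2.22 (edgeR, BH-adjusted p = 0.0649), so the call rested on these libraries.

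Elovl4 gave 3.69 and 3.37 UMIs per 10,000 in Tom+ libraries, and 2.45 and 0.433 in Tom- run 1 and run 2. The Tom+ libraries lay close together, and the Tom- libraries far apart. The log2 fold change of 1.52 ± 0.49 (SE) did not pass the threshold (edgeR, BH-adjusted p = 0.165). Without Tom- run 1 it was 2.91 (edgeR, BH-adjusted p = 8.82e-05), and without Tom- run 2 it was 0.59 (edgeR, BH-adjusted p = 0.768). With the run tag as a block, which pairs the sorts if a tag is a mouse, the log2 fold change was 1.61 and passed (edgeR, BH-adjusted p = 0.000844). Of the 20 Elovl4 UMIs of Tom- run 1, 18 came from 3 Krt10 high cells, and 13 from a single cell.

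Degs1, which introduces the double bond of ceramide, gave 1.34 and 0.982 UMIs per 10,000 in Tom+ libraries and 0.245 and 0.379 in Tom- libraries. Its groups did not overlap, with a log2 fold change of 1.70 ± 0.58 (SE; edgeR, BH-adjusted p = 0.219). Fdps, the farnesyl diphosphate synthase, gave 1.08 and 0.688 in Tom+ libraries and 0.490 and 0.271 in Tom- libraries, with a log2 fold change of 1.24 ± 0.64 (SE; edgeR, BH-adjusted p = 0.576). Neither difference passed the threshold, and the Tom- values of Degs1 rest on 2 and 7 UMIs, those of Fdps on 4 and 5.

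**Figure D2:**
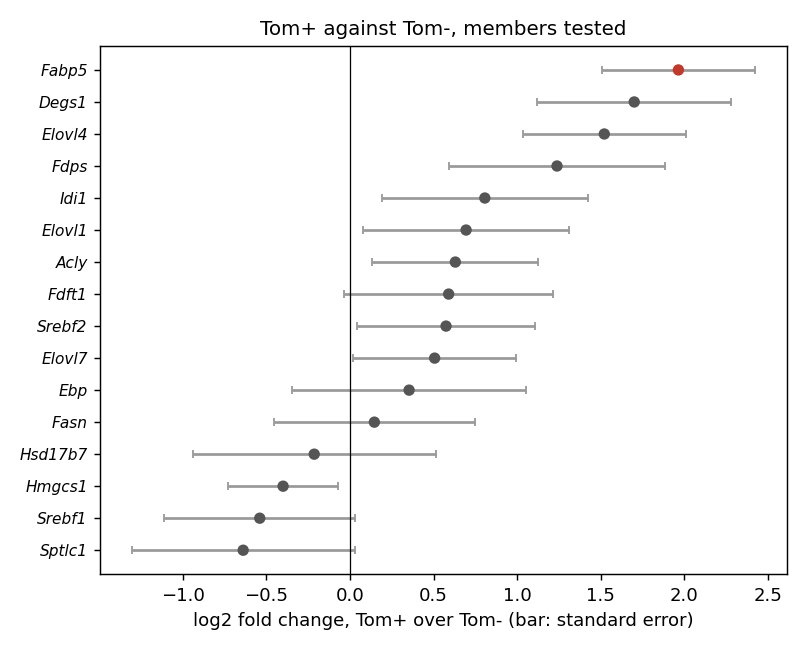
Log2 fold change of Tom+ over Tom- (horizontal axis) with its standard error (bars) for the 16 members that passed the filter on low counts in the edgeR test; red marks an adjusted p under 0.05. Fabp5 (1.96) is the 1 red point, Degs1 (1.70) and Elovl4 (1.52) follow it, and Sptlc1 (-0.64) and Srebf1 (-0.54) lie lowest.

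Among the sterol genes tested, Hmgcs1 stood at 3.18 and 3.34 UMIs per 10,000 in Tom+ and at 3.19 and 4.93 in Tom- libraries. These values overlap, with a log2 fold change of -0.40 ± 0.33 (SE; edgeR, BH-adjusted p = 0.831). Idi1 gave 0.890 and 0.720 in Tom+ against 0.245 and 0.542 in Tom- libraries. Fdft1, the squalene synthase, gave 0.763 and 0.720 against 0.735 and 0.325. Idi1 did not overlap between the sorts and Fdft1 did, but neither passed the threshold (edgeR, BH-adjusted p = 0.808 and 0.915).

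Among the fatty acid genes, Acly, which supplies cytosolic acetyl-CoA, gave 0.890 and 1.41 UMIs per 10,000 in Tom+ and 0.613 and 0.813 in Tom- libraries. The elongase Elovl7 gave 1.21 and 1.08 against 0.613 and 0.867. Both were above the Tom- range without passing the threshold (edgeR, BH-adjusted p = 0.815 and 0.889). Fasn, the fatty acid synthase itself, overlapped between the sorts at 0.699 and 0.655 in Tom+ and 0.858 and 0.433 in Tom- libraries.

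Sptlc1, a subunit of the serine palmitoyltransferase that starts sphingolipid synthesis, gave 0.318 and 0.589 UMIs per 10,000 in Tom+ and 1.10 and 0.488 in Tom- libraries, and these overlap. Cers3, the ceramide synthase for the longest acyl chains, was at 0 and 0.491 in Tom+ and at 0.368 and 0.542 in Tom- libraries. Ugcg, which adds glucose to ceramide, gave 0.254 and 0.327 against 0.123 and 0.0542. Cers3 and Ugcg, with 28 and 16 UMIs in all, did not pass the filter and were not tested.

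Of the regulators, Srebf2, which codes for SREBP-2, gave 0.954 and 0.884 UMIs per 10,000 in Tom+ and 0.490 and 0.650 in Tom- libraries. Srebf1 overlapped between the sorts at 0.763 and 0.458 in Tom+ and 0.490 and 1.03 in Tom- libraries. Neither passed the threshold (edgeR, BH-adjusted p = 0.873 and 0.914). Insig1 had 7 UMIs in all and was not tested.

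Over the 16 tested members the median log2 fold change was 0.58, against -0.0061 over all genes tested, and 12 were positive. In 9 of the 16, both Tom+ libraries were above both Tom- libraries, and in 0 the reverse held. Among all tested genes, 20.8% had both Tom+ libraries above and 38.9% did not overlap either way. Over all 39 members, 12 had the Tom+ libraries above, 2 (Lss and Insig1) had the Tom- libraries above, and 25 overlapped. Lss and Insig1 had 8 and 7 UMIs in all, and Fads1 and Fads2, without a UMI, are counted as overlapping. The shares above cover tested genes only, so no share over all genes stands beside this count. A member at a low level in Tom- libraries could reach the test through the Tom+ libraries alone, so these counts are given as a description. Tom+ libraries also held the larger share of Krt10 high cells, and in sums over a library more cells with a gene and more RNA per cell cannot be told apart.

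As a mean of shares per cell, sterol genes took 8.84 ± 0.71 UMIs per 10,000 in Tom+ and 8.97 ± 1.33 in Tom- libraries (SD, n = 2 each). Without Hmgcs1, a choice made after its values were seen, these were 5.88 ± 0.87 and 5.07 ± 0.44. The sterol difference of -0.124 changed sign on summed UMIs, to 0.374. Fatty acid genes took 8.06 ± 0.18 in Tom+ and 5.02 ± 2.05 in Tom- libraries. Without Elovl4, a choice made after its values were seen, these were 4.68 ± 0.083 and 3.85 ± 0.80. Sphingolipid genes took 2.09 ± 0.28 and 1.91 ± 0.0074. The difference for all sterol genes and for sphingolipid genes was smaller than the spread between libraries, and for fatty acid genes most of it was Elovl4.

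The next comparison asked how the same genes stood in cells at or above the Krt10 cut-off against those below it, within each library. Elovl4 and Fabp5 were higher in Krt10 high cells in all 4 libraries and passed the threshold, also when no filter on low counts was used. The sterol genes were also higher there as a group in all 4 libraries, while Hmgcs1, the most abundant of them, was not. Krt10 high and low cells of a library were summed apart, giving 8 sums, and tested with edgeR with the library as a block. Of 1206 genes tested, 6.72% passed, 3.98% higher and 2.74% lower in Krt10 high cells. Only 3 of the 39 members passed the filter on low counts, and 2 were called. Elovl4 and Fabp5 had 10 and 19 UMIs in all Krt10 low cells, so they reached the test through the Krt10 high class, and no share over the tested members is read from this. With no filter, over 13682 genes, both passed as well (edgeR, BH-adjusted p = 2.05e-09 for Elovl4 and 0.0089 for Fabp5). In the Tom- libraries the high class was 3 cells each, with 1 UMI worth 0.594 and 0.782 UMIs per 10,000.

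Elovl4 rose from 0 to 5.53 UMIs per 10,000 in Tom+ run 1, from 0.730 to 4.58 in Tom+ run 2, from 0.309 to 10.7 in Tom- run 1 and from 0.0582 to 5.47 in Tom- run 2. The classes did not overlap across the 8 sums. The log2 fold change was 4.28 ± 0.53 (SE; edgeR, BH-adjusted p = 6.37e-05, higher in 4 of 4 libraries). In the Tom+ libraries alone it was 3.38 (edgeR, BH-adjusted p = 0.0252), where 2.94% of 1766 genes passed. In Krt10 high cells, Elovl4 was seen in 19 of 25 and 28 of 37 Tom+ cells, and in 2 of 3 cells of each Tom- library. After thinning to 2000 UMIs, the shares in Tom+ Krt10 high cells were 64% (95% Clopper-Pearson interval 42.5 to 82.0%) and 48.6% (31.9 to 65.6%), with counting error only. Among Krt10 low cells, 0 of 10 in Tom+ run 1 held an Elovl4 UMI after thinning (95% Clopper-Pearson interval 0 to 30.8% of cells with a UMI), and 1 of 21 did in Tom+ run 2.

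The Krt10 low class still held cells with some Krt10. The cells without any Krt10 UMI after thinning, 8, 2, 9 and 37 in Tom+ run 1, Tom+ run 2, Tom- run 1 and Tom- run 2, held 0 Elovl4 UMIs. With 1 to 5 Krt10 UMIs, Elovl4 stood at 0, 0.818, 0.691 and 0.208 UMIs per 10,000 in Tom+ run 1, Tom+ run 2, Tom- run 1 and Tom- run 2. Elovl4 was thus seen only in kept cells that had at least 1 thinned Krt10 UMI, and was lower with 1 to 5 than with 6 or more in each library.

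Fabp5 rose from 0 to 2.67 UMIs per 10,000 in Tom+ run 1, from 0.834 to 4.72 in Tom+ run 2, from 0.309 to 1.78 in Tom- run 1 and from 0.524 to 3.13 in Tom- run 2. The classes did not overlap across the 8 sums. The log2 fold change was 2.77 ± 0.51 (SE; edgeR, BH-adjusted p = 0.00198, higher in 4 of 4 libraries). All 4 Fabp5 UMIs of the Tom- run 2 high class lay in 1 of its 3 cells, which also held 6 of its 7 Elovl4 UMIs. In contrast to Elovl4, 4 cells without a thinned Krt10 UMI held Fabp5, 1 in Tom- run 1 and 3 in Tom- run 2. Among Tom+ Krt10 high cells, both genes were seen in 10 of 25 and 19 of 37 cells, Elovl4 alone in 9 and 9, Fabp5 alone in 0 and 6, and neither in 6 and 3.

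**Figure D3:**
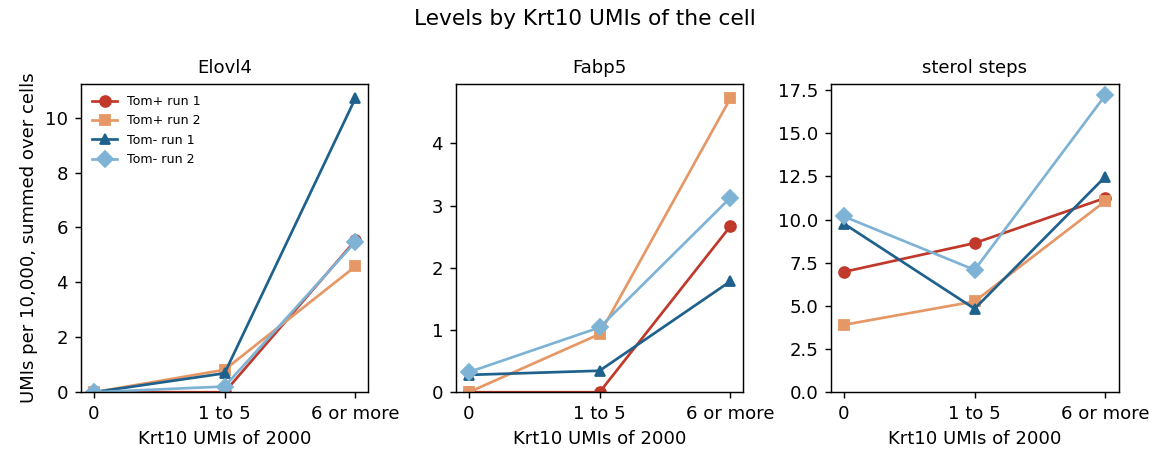
Level in UMIs per 10,000, summed over cells (vertical axes), of Elovl4, Fabp5 and the 16 sterol genes in cells with 0, 1 to 5 and 6 or more Krt10 UMIs of 2000 (horizontal axes); each line is 1 library. Elovl4 starts at 0 in all 4 libraries and ends between 4.58 and 10.7, Fabp5 ends between 1.78 and 4.72, and the sterol genes of the Tom- libraries dip at 1 to 5 Krt10 UMIs.

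Hmgcs1 did not follow. It went from 4.39 to 2.57 UMIs per 10,000 in Tom+ run 1, from 2.19 to 3.87 in Tom+ run 2, from 2.62 to 5.35 in Tom- run 1 and from 5.01 to 3.91 in Tom- run 2, up in 2 libraries and down in 2. Its log2 fold change was 0.16 ± 0.34 (SE; edgeR, BH-adjusted p = 0.876), and its sign turned in 7 of 20 other settings.

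The other sterol genes were too sparse for the test, and are described by their counts. Fdps had 8 UMIs in Krt10 low and 39 in Krt10 high cells, and went from 0.191 to 1.53, 0.104 to 0.955, 0.309 to 1.19 and 0.233 to 0.782 UMIs per 10,000 in the 4 libraries, where the last value is 1 UMI. Fdft1 had 14 and 32 UMIs, Mvk, the mevalonate kinase, 5 and 24, Cyp51, the lanosterol demethylase, 9 and 23, Idi1 18 and 30, and Msmo1 18 and 19. These are sums over libraries that differ in their share of Krt10 high cells. Within libraries, Cyp51 was higher in Krt10 high cells in 3 of 4, and Mvk, Idi1 and Msmo1 in 2 of 4. Mvk was level in Tom+ run 1 (0.573 and 0.572 UMIs per 10,000). Idi1 was at 0 in both Tom- high classes, where 1 UMI is worth 0.594 and 0.782 UMIs per 10,000. Its Krt10 low levels there, 0.309 and 0.582, lie below that worth, so a fall cannot be read from these zeros. In the Tom+ libraries Idi1 went from 0 to 1.33 and from 0.626 to 0.764. Fdps, Fdft1 and the lathosterol desaturase Sc5d were higher in Krt10 high cells in all 4 libraries, on 1 or 2 UMIs in the high class of each Tom- library. Dhcr7, the reductase of the final step, had 9 UMIs in Krt10 low and 2 in Krt10 high cells.

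Per cell, the 16 sterol genes took 6.07 UMIs per 10,000 in Krt10 low and 10.7 in Krt10 high cells of Tom+ run 1, 4.83 and 10.3 in Tom+ run 2, 6.78 and 15.1 in Tom- run 1, and 9.63 and 14.1 in Tom- run 2. Each library was higher in its Krt10 high cells, by 5.72 ± 1.77 on average (SD, n = 4). Without Hmgcs1, a choice made after its values were seen, the share went from 3.51 ± 1.15 to 8.79 ± 1.70, a difference of 5.28 ± 0.95, which lay between 3.98 and 6.12 in the 4 libraries. The Tom- run 2 value for Krt10 high cells rests on 22 UMIs, 17 of them from 1 of its 3 cells. In Tom- libraries, cells with 0 Krt10 UMIs gave 9.76 and 10.2 UMIs per 10,000 of sterol genes, and cells with 1 to 5 gave 4.83 and 7.08, so the levels there did not climb step by step with Krt10, whereas in the Tom+ libraries they did, from 6.97 to 8.63 to 11.2 and from 3.90 to 5.26 to 11.1. Some of these steps are thin, with 2 cells at 1 to 5 Krt10 UMIs in Tom+ run 1, 2 cells at 0 in Tom+ run 2, and 8 cells at 1 to 5 in each Tom- library. Setting the class at 1 Krt10 UMI instead of 6 lowered the mean difference to 1.83.

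Fatty acid genes took 4.01 ± 0.88 UMIs per 10,000 in Krt10 low and 11.3 ± 4.04 in Krt10 high cells, a difference of 7.30 ± 3.71 (SD, n = 4, higher in 4 of 4 libraries). The difference was 6.91 and 4.69 in Tom+ run 1 and run 2, and 12.7 and 4.93 in Tom- run 1 and run 2. The Tom- high classes rest on 29 and 13 UMIs, and 13 of the 29 were Elovl4 UMIs of 1 cell. Without Elovl4 the mean difference was 1.00 ± 0.63, again higher in 4 of 4. In Tom- run 1 and run 2 it was 0.605 and 0.575, on 11 and 6 UMIs in the high class. There 1 UMI is worth 0.594 and 0.782 UMIs per 10,000. Acly had 23 UMIs in Krt10 low and 54 in Krt10 high cells and was higher in 3 of 4 libraries. Fasn had 21 and 25 and Elovl7 32 and 41. Acaca, the acetyl-CoA carboxylase, was lower in Krt10 high cells in all 4 libraries, with 12 UMIs in Krt10 low and 9 in Krt10 high cells. In both Tom- libraries the high class, of 3 cells, held 0 Acaca UMIs. In the Tom+ libraries Acaca went from 0.382 to 0.286 and from 0.313 to 0.286 UMIs per 10,000. These rest on 2 and 3 UMIs in run 1 and on 3 and 6 in run 2.

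Sphingolipid genes took 1.62 ± 0.48 UMIs per 10,000 in Krt10 low and 2.30 ± 0.50 in Krt10 high cells. The difference of 0.68 ± 0.73 (SD, n = 4) was smaller than its spread, and was positive in 3 of 4 libraries. Degs1 was higher in Krt10 high cells in all 4 libraries, from 0.573 to 1.72, 0.626 to 1.15, 0.154 to 0.594 and 0.349 to 0.782 UMIs per 10,000. Ugcg was too, with 2 UMIs in Krt10 low and 14 in Krt10 high cells. In the Krt10 high class each Tom- library held only 1 UMI of Degs1 and 1 of Ugcg. The Krt10 low class of Tom- run 1 also held 1 Degs1 UMI, so the rise there comes from the smaller UMI total of the high class. Sptlc1 was lower in Krt10 high cells in 3 of 4 libraries, with 28 and 13 UMIs, and Cers3 had 14 in each class. The Cers3 counts went from 1 to 14 in Tom+ run 2 and from 3 and 10 to 0 in Tom- run 1 and run 2. The Krt10 low levels of Cers3 in Tom- run 1 and run 2 were 0.463 and 0.582 UMIs per 10,000. These lie below the worth of 1 UMI in the high class, 0.594 and 0.782. Tom+ run 1 held 0 Cers3 UMIs in both classes. In the Tom+ libraries alone Degs1 reached the test, with a log2 fold change of 1.12 (edgeR, BH-adjusted p = 0.408).

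Among the regulators, Srebf2 was higher in Krt10 high cells in all 4 libraries, from 0.191 to 1.33, 0.730 to 0.955, 0.463 to 0.594 and 0.582 to 1.56 UMIs per 10,000. The Krt10 high values of the Tom- libraries are 1 and 2 UMIs. Srebf1 was higher in 3 of 4, with 26 UMIs in Krt10 low and 23 in Krt10 high cells. Insig1 had 4 and 3.

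**Figure D4:**
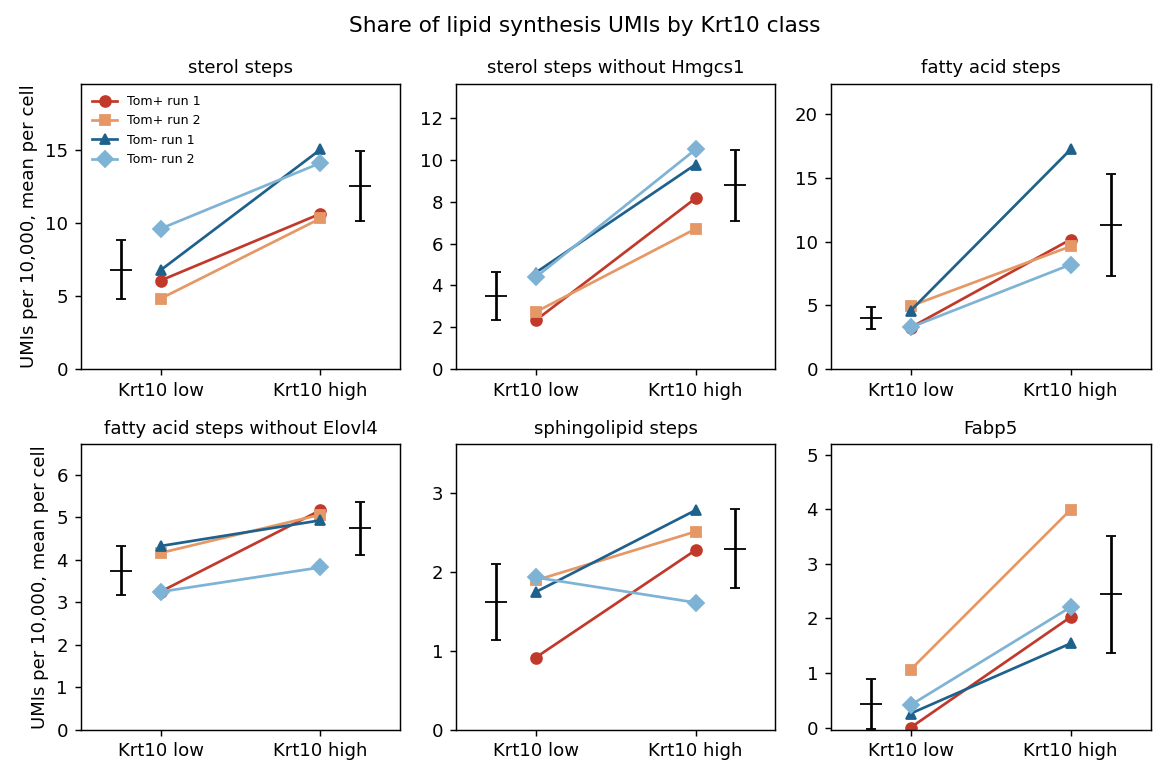
Mean share per cell, in UMIs per 10,000 (vertical axes), of each gene group in Krt10 low and Krt10 high cells; each line is 1 library, and the black bars give the mean and SD over the 4 libraries. All 4 lines rise for the sterol genes, the sterol genes without Hmgcs1, the fatty acid genes with and without Elovl4 and Fabp5, while 1 line falls for the sphingolipid genes.

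Of the 30 members with at least 10 UMIs, 8 were higher in Krt10 high cells in all 4 libraries: Fdps, Fdft1, Sc5d, Srebf2, Elovl4, Degs1, Ugcg and Fabp5. Among all 7484 genes with at least 10 UMIs, 5.97% were. Acaca was the 1 member lower in all 4, against 10.4% of those genes, and it held 0 UMIs in the high class of both Tom- libraries. For Fdps, Fdft1, Sc5d, Srebf2, Degs1 and Ugcg, at least 1 Tom- library had only 1 UMI in its Krt10 high class. Members were chosen with earlier results of these data known, so these counts are given as a description. Beside these values, basal markers stood at 331 to 406 UMIs per 10,000 in Krt10 low and 82.1 to 129.6 in Krt10 high cells, and the 10 sebaceous markers at 0.873 to 2.10 and 2.05 to 5.47, of which Scd1 gave 99 UMIs and the defining genes named above 0. Bulge and infundibulum markers, at 8.09 ± 1.87 and 13.5 ± 5.20 in Krt10 low cells, were lower in Krt10 high cells in all 4 libraries, at 1.56 ± 1.26 and 6.65 ± 8.41 (mean of shares per cell, SD, n = 4). For infundibulum markers in Tom+ run 2 the mean shares were close, at 19.5 in Krt10 low and 19.2 in Krt10 high cells. On summed UMIs they were higher there in Krt10 high cells, at 16.7 and 21.4, and 1 high cell reached 309. Replication and mitosis genes stood at 2.10 to 14.5 in Krt10 low and 0 to 2.57 in Krt10 high cells. In Tom+ run 1 they were higher in Krt10 high cells, at 2.57 against 2.10. The value of 14.5 is from Tom+ run 2, where 1 Krt10 low cell reached 76.9. The median number of genes per cell thinned to 2000 UMIs was 932 to 1002 in Krt10 low and 983 to 1029 in Krt10 high cells, and mitochondrial genes took 5.07 to 7.003% and 4.35 to 7.78%. Their part in the lipid gene values was not tested.

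When Tom+ and Tom- libraries were compared over Krt10 low cells alone, 4 of 1318 genes passed (0.303%). Of the members only Hmgcs1 was tested, with a log2 fold change of -0.40 ± 0.44 (SE; edgeR, BH-adjusted p = 0.994). Fabp5 gave 0, 0.834, 0.309 and 0.524 UMIs per 10,000 in the Krt10 low cells of Tom+ run 1, Tom+ run 2, Tom- run 1 and Tom- run 2. Elovl4 gave 0, 7, 2 and 1 UMIs there. Both genes overlapped between the sorts once Krt10 high cells were set aside, because Tom+ run 1 stood at 0 on 10 cells. Tom+ run 2 lay above both Tom- libraries for each gene, for Elovl4 at 0.730 against 0.309 and 0.0582 UMIs per 10,000. With so few cells, the overlap cannot show whether a sort difference remains. Degs1, at 0.573 and 0.626 against 0.154 and 0.349, did not overlap in Krt10 low cells, on 3, 6, 1 and 6 UMIs, which is given as a description.

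Whether the Krt10 class difference itself differed between Tom+ and Tom- libraries was tested as an interaction. No gene of 1206 passed (edgeR), and 57 had an unadjusted p under 0.05. For Elovl4 the interaction was -1.97 (edgeR, BH-adjusted p = 0.897), for Fabp5 0.64 and for Hmgcs1 -0.05. The Tom- side of this test rests on 3 Krt10 high cells in each library, and what size of interaction it could detect was not tested.

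Of 75 further genes of these pathways listed beside the members, 74 were in the tables. In the comparison of the sorts, 26 were tested and 0 called by edgeR, 4 with an unadjusted p under 0.05 (Sptssa, Dbi, Ormdl2 and Abhd5), against 302 of all 3070 genes tested. In the comparison of Krt10 classes, 11 were tested and 2 called, both higher in Krt10 high cells, against 6.72% of all genes tested. Dbi, the acyl-CoA-binding protein, had a log2 fold change of 1.55 ± 0.26 (SE; edgeR, BH-adjusted p = 0.000959). Acsl1, which activates long-chain fatty acids with coenzyme A, had 2.22 ± 0.49 (SE; edgeR, BH-adjusted p = 0.00807). Scd1, a stearoyl-CoA desaturase, had 0.94 and did not pass the threshold (edgeR, BH-adjusted p = 0.374). With 20 UMIs in Krt10 low and 79 in Krt10 high cells, Acsl1 reached the test through the Krt10 high class. No share over the further genes is therefore read from these calls. In the Tom+ libraries alone, 19 of the further genes were tested and 1 was called, with 0 called among the 5 fatty acid genes tested. Acsl1 was thus not called in the Tom+ libraries alone.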

How the data were processed

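The authors prepared 5′ STRT libraries from cells captured by the Fluidigm C1 system. The deposited values are raw UMI counts of each gene in each well, and 100 rows of spike-ins and 9 of reporters were left out of all totals here. The labels name the builds mm10 and GRCm38, and the aligner is not given in the sources used here. RefSeq GRCm38.p6 supplied promoters and positions. Wells with at least 2000 gene UMIs were kept, and each was thinned once (seed 1) to 2000 UMIs for the Krt10 class (at least 6 UMIs, from the study's cut-off of 1.84 on log-normalized counts, applied here to ln(UMI + 1)). Very high wells stayed in, and no doublet caller was run. Counts were summed per library, or per library and class, and tested with edgeR 4.0.16 in R 4.3.3 (TMM, filterByExpr, quasi-likelihood, Benjamini-Hochberg, 0.05), after the scripts had been tested on simulated data. Replicate libraries differed by more than sampling noise (chi-square per gene 2.36 for Tom+ and 2.29 for Tom-). Shares over a gene group got no test. Values were given in full for members past the threshold, the 4 with the most UMIs in each route, the regulators, Fabp5, and tested members with sorts that did not overlap and a log2 fold change beyond 1. Members and lists were chosen with earlier results of these data known. The alternatives tried were DESeq2 1.42.0 (size factors or Wald test), no filter on low counts, other UMI minimums, classes and seeds, thinned sums, a replicate block and each library left out.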

Additional observations from a re-analysis of the deposited data

How the results depend on the processing

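In the comparison of Tom+ with Tom-, 38 genes and 1 member passed the threshold. The DESeq2 Wald test gave 22 genes and 0 members, cells with at least 5000 UMIs 8 and 0, thinned sums 24 and 0, and no filter on low counts 2 members. Leaving out each library gave 27 to 65 genes and 0 to 2 members. Run tags were tried as a replicate block, which gave 116 genes and 2 members (Fabp5, and Elovl4 at 1.61), but the deviations of run 1 from run 2 correlated at only 0.129 across genes between the sorts, and with 2 pairs the tags were not taken as a pairing. Fabp5 kept its direction in all 11 settings that tested it (1.34 to 2.38) and lost its call in 5 of them, with log2 fold changes of 1.34 to 2.22, among them the 5% of cells with most UMIs left out (1.72) and the DESeq2 Wald test. Elovl4 passed in 4 of 12 (1.61 to 2.91). Without Tom- run 2, Hmgcs1 (0.11), Fasn (-0.27) and Srebf1 (0.33) turned sign, with none called. Over the libraries left out these ranged from -0.69 to 0.11, -0.27 to 0.54 and -0.91 to 0.33.

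In the comparison of Krt10 classes, 81 genes and 2 members passed. At least 5000 UMIs gave 24 and 1, thinned sums 45 and 1, Tom+ libraries alone 52 genes, the 5% of cells with most UMIs left out 1 member, a class at 1 Krt10 UMI 14 and 0, and thinning seed 2 gave 122 genes. Where Fabp5 or Elovl4 was not called here, it had not passed the filter on low counts. Elovl4 was called in all 20 settings that tested it (3.11 to 5.71) and Fabp5 in all 17 (1.76 to 3.02). Leaving out each library gave 54 to 92 genes. Hmgcs1 was never called, and turned sign with no filter (-0.033), at least 5000 UMIs (-0.18), no library block (-0.025), the class at 1 UMI (-0.27), seed 2 (-0.023), and without Tom+ run 2 or Tom- run 1 (range over the libraries left out -0.18 to 0.50). Among Krt10 low cells, 4 genes passed, 1 with at least 1000 UMIs, 0 with at least 5000, 0 with the replicate block, and 1 to 3 with a library left out, where Hmgcs1 ranged from -0.88 to 0.29.

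The share of fatty acid genes differed between sorts by 3.03 UMIs per 10,000, by 4.73 with Fabp5 counted in, and by 0.829 without Elovl4, an alternative chosen after seeing the data. The sterol difference of -0.124 ranged from -1.07 to 0.819 over all settings. The sphingolipid difference of 0.182 became -0.0966 with at least 1000 UMIs, -0.0244 with at least 5000, -0.0341 without the 5% of cells with most UMIs, and 0.389 on summed UMIs. Between Krt10 classes the sterol difference of 5.72 was 3.86 with at least 5000 UMIs, 1.83 with the class at 1 UMI and 7.90 with seed 6. The fatty acid difference of 7.30 was 1.00 without Elovl4, and the sphingolipid difference of 0.675 was -0.168 with the class at 1 UMI. The causes were not tested. Depth limits these genes: 3 of 39 members passed the filter on low counts in the test between Krt10 classes.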
